A study of Rattus norvegicus with 36 samples.

Results

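The comparison described here set the dorsal striatum of rats that had met cocaine on a single last day (Sal–Coc) against that of rats given saline throughout (Sal–Sal). It rests on 6 of the 9 RNA pools of the series, which are 24 of the 36 deposited technical replicates. All rats were Sprague-Dawley, an outbred laboratory strain, aged 8 weeks. The labels give Sal–Sal rats 15 injections of physiological serum and Sal–Coc rats 13 of serum and 3 of cocaine, which sum to 1 more than the 15 of the other group. Per the study's methods the tissue was taken a day after the last injection, and the labels name no transgene. They give dorsal striatum as the source of every pool, while their extraction text, shared by all pools, names both nucleus accumbens and caudate putamen. The 3 pools of a group carried the numbers 5, 6 and 7, and each joined the tissue of a pair of rats, so the spread between the rats of a pool was not measured. The 3 remaining pools, from rats given 15 cocaine injections (Coc–Coc), entered the model to share its estimate of the spread. They also took part in the filter on genes and in the scaling factors.

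The dorsal striatum, or caudate putamen, is the input nucleus of the basal ganglia and takes part in movement selection and habit. Most of its neurons are GABAergic projection neurons that express D1 or D2 dopamine receptors and receive dopamine from the substantia nigra. Cocaine blocks the dopamine transporter and so raises extracellular dopamine, and the first wave of genes that it induces in these neurons is known to fade within hours. A sample taken a day later therefore reads what remains or develops after that wave. The deposited files list Ensembl gene IDs with no gene names, and the gene table at hand shared none of its identifiers with them. Genes are therefore described here by direction, size, level and pool, and 4 of them by ID. Markers of striatal neurons, glia or neighbouring tissue could not be looked up, so the labelled tissue was not checked against them.

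The 6 pools held between 29870775 and 37281141 counts each, and between 19328 and 19902 genes with any count. The 4 technical replicates differed within pools almost as counting noise alone would have it, with a chi-square statistic per degree of freedom of 1.005 to 1.028 where noise gives 1, and were summed. Values are given as counts-per-million (CPM) of a pool's total after scaling by its TMM factor, which corrects totals for a few genes that take more of the reads in some pools. The floor of detection was set at 3 counts, which is 0.0803 to 0.103 CPM depending on the pool. This floor covers counting error only. Nothing in the labels says more of the pools than their number, so p-values measure the spread between these pools.

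The pools of the groups lay close together. The median absolute difference in log2 CPM between a pair of pools was 0.121 ± 0.016 (SD) over the 3 pairs within Sal–Sal, 0.136 ± 0.023 over the 3 within Sal–Coc and 0.145 ± 0.017 over the 9 pairs between the groups. The first principal component of the 6 pools held 35.9% of the variance. On it Sal–Coc pools 5 and 7 stood at 24.4 and 24.1, and the Sal–Sal pools at −22.9, −2.61 and −14.6. Sal–Coc pool 6 stood at −8.45, among the Sal–Sal pools. The second component, with 20.8% of the variance, set that pool at −27.2, apart from every other pool.

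**Figure D1:**
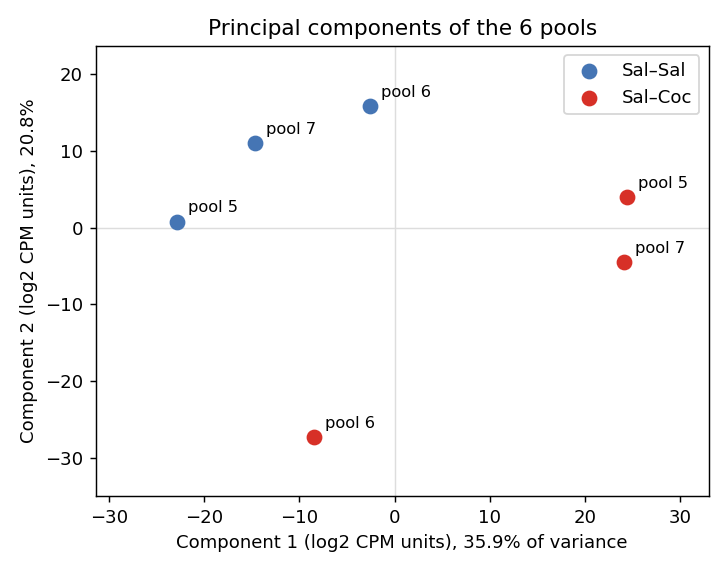
First and second principal components of log2 CPM (prior count 2) in the 6 pools, 1 point per pool, blue for Sal–Sal and red for Sal–Coc. Sal–Coc pools 5 and 7 lie at 24.4 and 24.1 on component 1, whereas Sal–Coc pool 6 lies at −8.45 within the range of the Sal–Sal pools and at −27.2 on component 2.

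Of 15884 genes tested for Sal–Coc vs. Sal–Sal, 0 (0%) passed edgeR's quasi-likelihood test at an adjusted p of 0.05. The lowest adjusted p-value was 0.333, shared by 24 genes. Before adjustment 1265 genes (7.96%) had a p-value under 0.05 in edgeR, of which 469 (2.95%) were higher and 796 (5.01%) lower in Sal–Coc. If no gene differed, 794 would be expected. DESeq2, a count test of the same family as the authors' own, called 59 of the 15177 genes it tested (0.389%), 11 higher (0.0725%) and 48 lower (0.316%). Without Sal–Sal pool 7 the unadjusted count in edgeR was 808, and without Sal–Coc pool 7 it was 800. It was 889 and 1081 without Sal–Sal pools 5 and 6, and 908 and 1452 without Sal–Coc pools 5 and 6. Pool 5 of Coc–Coc, which belongs to neither group, was 1.5-fold or more away from the 6-pool median for 2170 genes, against 681 and 666 genes in the other Coc–Coc pools. Without it edgeR still called 0 genes, the unadjusted count was 1970, and DESeq2 called 224 genes, 53 higher and 171 lower. DESeq2 was not run without any other pool, so its 224 calls have no such comparison.

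Most differences were small. The median log2 fold change was 0.01 and the median absolute one 0.1, beside a median standard error of 0.12. The direction was nearly balanced over all genes, with 8413 higher and 7471 lower in Sal–Coc, but the tails were not. The lowest 1% of log2 fold changes began at −1.005, and the highest 1% at 0.64. A difference of at least 1.5-fold was measured for 200 genes in the higher and 521 in the lower direction. At 2-fold there were 36 and 162 genes, and at 3-fold 3 and 31. The lower side kept its lead among genes with a mean of at least 1 CPM, where 14 genes were at least 2-fold higher and 55 at least 2-fold lower.

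The 3 pools of a group did not overlap those of the other for 2919 genes (18.4%). With no group effect, 3 pools and 3 pools fail to overlap with a probability of 0.1. Genes vary together between pools, so the share above that was not tested. They separated upward for 1409 (8.87%) and downward for 1510 (9.51%). The genes that separated downward did so by more. Their median log2 fold change was −0.27, with the 5th and 95th percentiles at −1.03 and −0.09, whereas that of the genes separated upward was 0.18, with the same percentiles at 0.08 and 0.63. The empty interval between the nearest pools of the groups was narrow, with a median of 0.05 on the log2 scale for genes higher and 0.07 for genes lower in Sal–Coc. It was at least 1.5-fold wide for 5 genes higher and 36 lower, and at least 2-fold wide for 0 higher and 5 lower. Of the 1409 genes 400 had an unadjusted p-value under 0.05 in edgeR, and of the 1510 genes 692 had one. Over all 15884 tested genes 469 higher and 796 lower ones did. The separation and the p-value use the same pool values, so neither is support for the other.

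A stricter reading asked that all 12 technical replicates of a group lie beyond all 12 of the other. That held for 286 genes (1.8%), 119 higher (0.749%) and 167 lower (1.05%). Of these 286 genes, 125 were in the most abundant decile and 1 in the least abundant one. Technical replicates vary almost as counting noise, so this reading adds no rats and is easier to meet for genes with many reads. Sal–Coc pool 6 was most often the nearest to saline. It was the closest Sal–Coc pool for 593 of the 1409 genes separated upward (42.1%) and for 765 of the 1510 separated downward (50.7%). Sal–Coc pool 7 was the closest for 359 (25.5%) and 271 (17.9%). On the saline side, pool 6 was the closest to Sal–Coc for 39.4% of the genes separated upward and 40.1% of those separated downward.

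**Figure D2:**
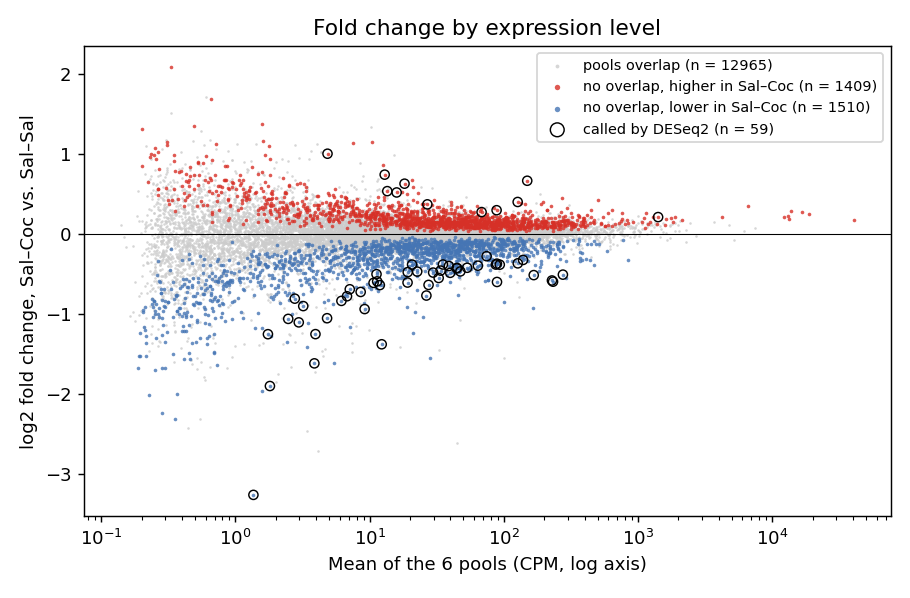
log2 fold change of Sal–Coc vs. Sal–Sal against the mean of the 6 pools in CPM (log axis), 1 point per tested gene. Red and blue points are the 1409 and 1510 genes whose pools did not overlap, grey points the other genes, and black circles the 59 genes called by DESeq2, of which 48 lie below 0.

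Direction depended on expression level. Among the genes of the most abundant decile, with means from 121 CPM upward, 68.4% were higher in Sal–Coc, and 256 separated upward against 121 downward. In the least abundant decile, at 0.14 to 0.782 CPM, 41.1% were higher, and 74 separated upward against 170 downward. The filter did not ask for its minimum in every pool. A gene of this decile could thus pass through the group where it was higher, so its counts are descriptive only. The share of genes that were higher stayed between 50.4% and 51.0% in the third to sixth deciles, and was 54.1%, 55.6% and 60.6% in the seventh, eighth and ninth. The median log2 fold change was 0.04 in the most abundant decile and −0.12 in the least abundant. Among genes of the least abundant decile with at least 10 counts in every pool it was −0.07.

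Large differences came from the other end of the scale. Of the genes that separated by at least 2-fold, 16 were higher and 81 lower, and 10 and 57 of these were in the least abundant decile. Genes of that decile could pass the filter through the group where they were higher, and how much this adds was not tested. From the eighth decile upward, above 42.3 CPM, 0 genes separated by 2-fold or more. The median standard error of a log2 fold change fell by decile from 0.40 in the first to 0.08 in the ninth.

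The level pattern was not carried by every pool. For the least abundant decile, the median deviation of a pool from the mean of the 6 pools, in log2 CPM, was 0.14, 0.03 and 0.08 in Sal–Sal pools 5, 6 and 7. It was −0.05, 0.06 and −0.12 in Sal–Coc pools 5, 6 and 7. For the most abundant decile it was −0.03, −0.01 and −0.02 in Sal–Sal and 0.02, −0.02 and 0.07 in Sal–Coc. Sal–Coc pool 6 lay within the range of the Sal–Sal pools in both deciles, and the groups overlapped. The exact permutation test over pools gave p = 0.2 for either decile (two-sided, n = 3 against 3, adjusted p = 0.233 over 7 measures), and this design cannot go below 0.1. Without Sal–Coc pool 7 the median log2 fold change of the most abundant decile was 0.02 and that of the least abundant −0.07. Without Sal–Coc pool 6 that of the least abundant was −0.18.

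**Figure D3:**
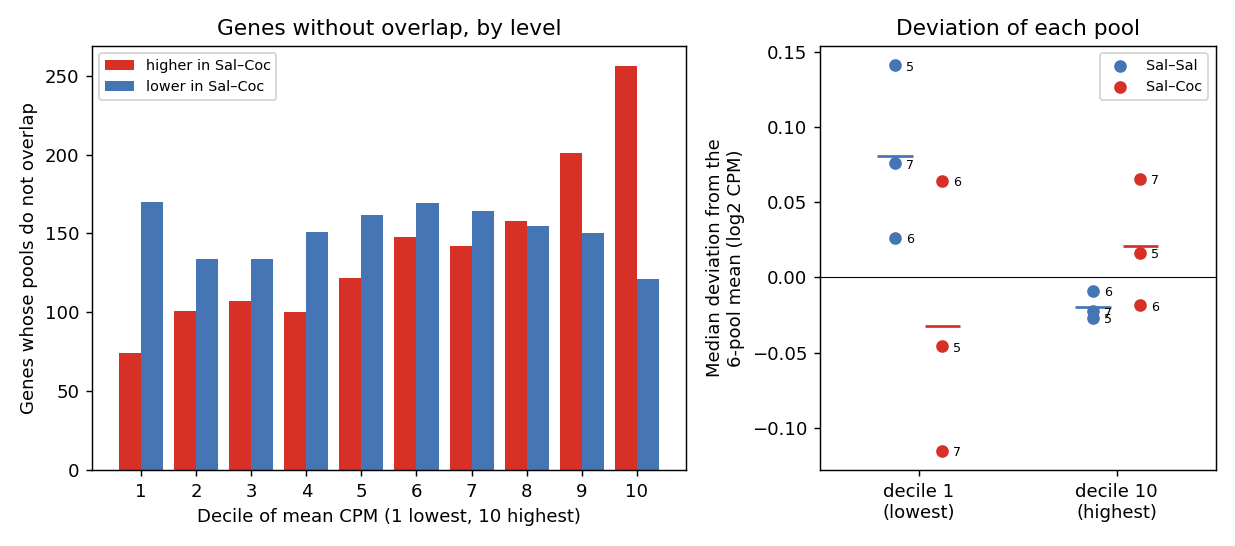
Left, number of genes whose pools did not overlap, by decile of mean CPM, red for genes higher and blue for genes lower in Sal–Coc: 74 and 170 in decile 1, 256 and 121 in decile 10. Right, median deviation of each pool from the mean of the 6 pools in the lowest and highest decile (log2 CPM), with pool numbers beside the points and lines at group means; Sal–Coc pool 6 lies among the Sal–Sal pools in both.

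The 10 most abundant transcripts were on average higher after the cocaine day, without passing the test. All of the 10 genes with the highest mean were above Sal–Sal on average, by 0.04 to 0.35 on the log2 scale, and 8 of the 10 separated upward with 0 downward. The background was 8.87% upward over all tested genes, and 256 of the 1589 genes in the most abundant decile. The 10 genes come from the same pools and tended to move together between them, so they are not 10 independent observations. The most abundant gene was counted at 39361, 38876 and 36088 CPM in Sal–Sal pools 5, 6 and 7, and at 44672, 41780 and 42569 CPM in Sal–Coc pools 5, 6 and 7. Each Sal–Coc pool was above each Sal–Sal pool. Its log2 fold change was 0.17 ± 0.14 (SE), and edgeR gave it an adjusted p of 0.806. The ninth of these genes had the widest difference, from 6469, 5518 and 5333 CPM to 7847, 7332 and 6836 CPM. Its groups did not overlap, its log2 fold change was 0.35 ± 0.15 (SE), and its adjusted p-value was 0.608 in edgeR. None of the 10 passed the test, and 1 had an unadjusted p-value under 0.05. The genes at ranks 8 and 10 overlapped between the groups.

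Their summed weight moved with them. The 10 most abundant genes of each pool took 14.6%, 14.1% and 13.5% of all counts in Sal–Sal pools 5, 6 and 7, and 16.6%, 15.4% and 15.0% in Sal–Coc. The Sal–Coc pools were above the Sal–Sal pools without overlap, and the exact permutation test gave p = 0.1, the lowest that 3 against 3 pools allow (two-sided, adjusted p = 0.233 over 7 measures). The Coc–Coc pools stood at 13.9%, 17.2% and 15.6%, which overlaps both groups. These percentages are plain shares of the counts, whereas all CPM values include the TMM factors, which lay between 0.976 and 1.04 in the 6 pools. Among the 100 most abundant genes 85 were higher in Sal–Coc, against 53.0% of all tested genes and 68.4% of the most abundant decile. Of the 100, 28 separated upward and 1 downward, against 8.87% and 9.51% of all tested genes. These genes come from the same pools too, so they are not 100 independent observations. Only 3 of the 100 had an unadjusted p-value under 0.05 in edgeR, 2 of them higher, against 7.96% of all tested genes.

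**Figure D4:**
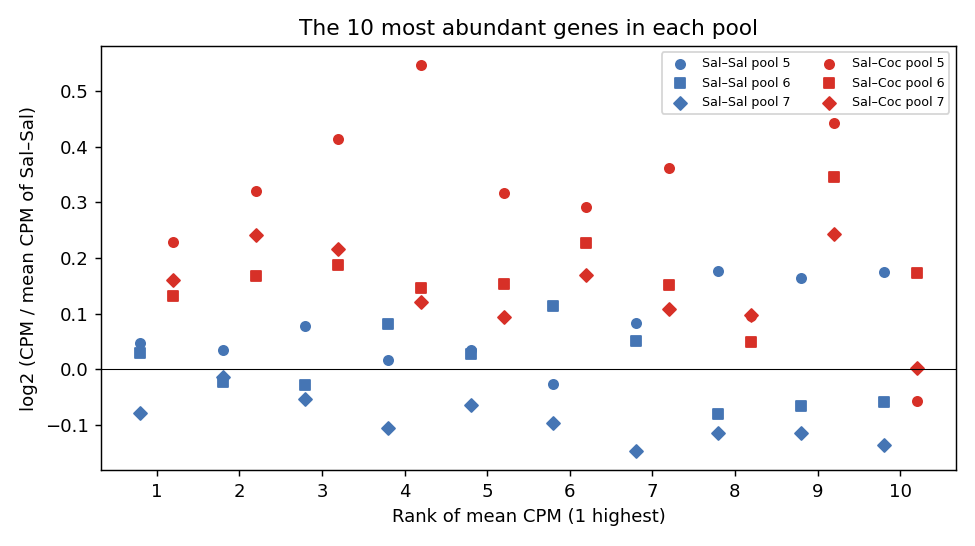
log2 ratio of CPM in each pool to the Sal–Sal mean for the 10 genes with the highest mean CPM, ordered by rank; blue symbols are Sal–Sal and red symbols Sal–Coc pools, with the shape giving the pool number. For 8 of the 10 genes, all but ranks 8 and 10, every red symbol lies above every blue one.

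The 4 genes given by ID had the smallest p-values in either direction among genes that separated the pools at a mean of at least 1 CPM. ENSRNOG00000025130 was counted at 28.4, 35.5 and 36.1 CPM in Sal–Sal pools 5, 6 and 7 and at 19.9, 21.4 and 17.4 CPM in Sal–Coc pools 5, 6 and 7. Every Sal–Coc pool was lower than every Sal–Sal pool, and so were all technical replicates, at most 22.1 CPM in Sal–Coc and at least 24.99 CPM in Sal–Sal. Its log2 fold change was −0.77 ± 0.11 (SE). The adjusted p was 0.333 by edgeR's test and 1.36e-05 by DESeq2's. In Coc–Coc it stood at 23.5, 24.4 and 22.3 CPM, between the groups compared and apart from both.

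ENSRNOG00000021814 was the scarcest of the 4 and had the widest difference. It was counted at 3.61, 2.53 and 2.44 CPM in Sal–Sal pools 5, 6 and 7, from 118, 88 and 89 reads. In Sal–Coc it stood at 0.548, 1.1 and 0.614 CPM, from 16, 41 and 22 reads. The lowest Sal–Sal pool was more than 2-fold above the highest Sal–Coc pool. The log2 fold change was −1.90 ± 0.30 (SE). DESeq2 put the adjusted p at 8.22e-05, whereas edgeR put it at 0.333. Its Coc–Coc values were 1.23, 1.96 and 1.49 CPM, again between the groups and overlapping neither.

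ENSRNOG00000019582 was higher after the cocaine day. It was counted at 14.8, 15.2 and 12.9 CPM in Sal–Sal pools 5, 6 and 7 and at 21.4, 24.3 and 20.6 CPM in Sal–Coc pools 5, 6 and 7. All Sal–Coc pools were above all Sal–Sal pools, with pool 6 the highest. Its log2 fold change was 0.63 ± 0.11 (SE). It had an adjusted p of 0.000709 with DESeq2 but of 0.333 with edgeR. In Coc–Coc it stood at 23.9, 19.3 and 21.4 CPM, overlapping Sal–Coc and above every Sal–Sal pool.

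ENSRNOG00000005108 was the most abundant of the 4. It was counted at 111, 110 and 125 CPM in Sal–Sal pools 5, 6 and 7 and at 174, 203 and 173 CPM in Sal–Coc pools 5, 6 and 7. The groups were far apart beside their spread, at means of 115 ± 8.67 CPM and 183 ± 17.0 CPM (SD, n = 3 each). The difference amounted to 0.67 ± 0.12 (SE) on the log2 scale, at an adjusted p of 0.000304 by DESeq2's test and 0.333 by edgeR's. In Coc–Coc it stood at 149, 138 and 186 CPM, above Sal–Sal and overlapping Sal–Coc. Of the 4 genes, the pair that was higher in Sal–Coc had its highest value in Sal–Coc pool 6, the pool that lay among the Sal–Sal pools on the first principal component. The 4 genes were picked for these differences, which are descriptive.

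**Figure D5:**
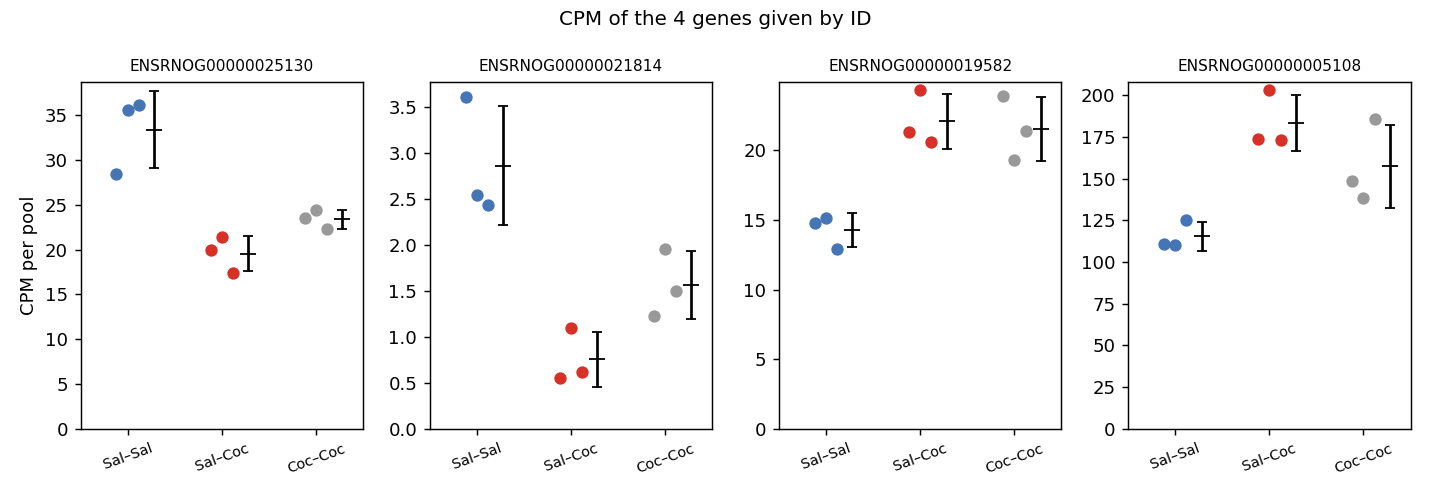
CPM of the 4 genes given by ID in each pool (pools 5, 6 and 7 from left to right within a group; blue for Sal–Sal, red for Sal–Coc, grey for Coc–Coc), with group mean ± SD beside the points (n = 3). The upper limit of Sal–Coc is below the lower limit of Sal–Sal for ENSRNOG00000025130 and ENSRNOG00000021814, and the reverse holds for ENSRNOG00000019582 and ENSRNOG00000005108.

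The 12 genes with the smallest p-values in each direction, chosen in the same way, differed in size. The 12 lower genes had log2 fold changes of −1.90 to −0.37 (median −0.75) at means of 1.81 to 88.7 CPM, and DESeq2 called all 12. The 12 higher genes had log2 fold changes of 0.23 to 1.005 (median 0.53) at means of 1.66 to 149 CPM, and DESeq2 called 9. In edgeR's quasi-likelihood test the adjusted p-values were 0.333 for the lower genes and 0.333 to 0.371 for the higher ones. All technical replicates separated the groups for 11 of the 12 lower and 10 of the 12 higher genes, against 1.05% and 0.749% of all tested genes. These genes were picked because their pools separated, so this adds no support.

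The 59 genes called by DESeq2 covered a wide range of levels. In DESeq2's own estimates the 48 lower genes had log2 fold changes of −3.29 to −0.28 (median −0.59), 24 of them at least 1.5-fold and 9 at least 2-fold. Their means ran from 1.36 to 275 CPM, with a median of 24.5 CPM. The 11 higher genes had log2 fold changes of 0.21 to 1.004 (median 0.52) at 4.85 to 1411 CPM, with a median of 26.9 CPM. All 59 separated the pools and were among the genes tested by edgeR, where their adjusted p-values ran from 0.333 to 0.508. A smaller set of 36 genes, 6 higher and 30 lower, passed in DESeq2, in edgeR's likelihood ratio test and in limma-voom with sample quality weights. All 36 separated the pools, and in 32 so did every technical replicate, against 18.4% and 1.8% of all tested genes. The calls and the separation were read from the same pools. That the 59 and the 36 separated is therefore no further support for them. The calls of these tests are not independent, since each used the same pools.

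Large folds at higher levels were few, and the widest in each direction rested on a single pool. Of the genes with a mean of at least 10 CPM, 11 differed by at least 2-fold, 9 lower and 2 higher in Sal–Coc. Only 5 of the 11 separated the pools. The gene with the widest fold, at a log2 fold change of −2.61 ± 1.01 (SE), was counted at 9.07, 213 and 9.63 CPM in Sal–Sal pools 5, 6 and 7. In Sal–Coc it stood at 12.1, 13.9 and 11.9 CPM, so that Sal–Sal pool 6 alone held 79.0% of its summed CPM and the other Sal–Sal pools were lower than Sal–Coc. In the same way, the gene with the widest fold upward, at 1.33 ± 0.66 (SE), was at 34.5 CPM in Sal–Coc pool 6 and between 4.3 and 6.65 CPM in the other 5 pools.

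Sal–Sal pool 5 was the highest of the 6 pools for 7 of these 11 genes. A set of 4 of them shared an order of pools, with Sal–Sal pool 5 first, then Sal–Sal pool 7, Sal–Coc pool 6, Sal–Sal pool 6, Sal–Coc pool 7 and Sal–Coc pool 5. The most abundant of the 4 was at 239, 46.1 and 165 CPM in Sal–Sal pools 5, 6 and 7 and at 4.18, 122 and 27.0 CPM in Sal–Coc pools 5, 6 and 7. It thus varied widely within either group, and its log2 fold change of −1.55 ± 1.08 (SE) had an adjusted p-value of 0.766 in edgeR. Coc–Coc pools 5, 6 and 7 held it at 16.3, 177 and 35.4 CPM, also far apart. These 4 genes were picked after their values were seen.

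Among the 11, the gene with the smallest p-value was counted at 14.6, 21.1 and 17.7 CPM in Sal–Sal pools 5, 6 and 7 and at 4.42, 10.3 and 5.64 CPM in Sal–Coc pools 5, 6 and 7. The groups did not overlap, and its log2 fold change was −1.38 ± 0.27 (SE). By edgeR's test the adjusted p was 0.333, and by DESeq2's it was 0.000304. Its Coc–Coc values of 14.7, 12.6 and 15.6 CPM were above every Sal–Coc pool and met the lower end of Sal–Sal. The largest log2 fold change among genes that separated the pools at a mean of at least 1 CPM was −3.26 ± 0.72 (SE). That gene was at 1.253, 5.39 and 0.766 CPM in Sal–Sal pools 5, 6 and 7 and at 0.24, 0.268 and 0.251 CPM in Sal–Coc. Sal–Sal pool 6 raised this size, with 187 reads against 41 and 28 in the others. Those pools were also above every Sal–Coc pool, where it had 7, 10 and 9 reads.

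Presence or absence of a transcript hardly told the groups apart. Just 1 gene was counted at least 3 times in every Sal–Sal pool and at 0 in every Sal–Coc pool, with 3, 3 and 4 reads. Summed over pools it was at least 3.33-fold lower in Sal–Coc, taking 3 reads over the group as the floor. Another 1 gene was at 0 in every Sal–Sal pool and at 3, 4 and 5 reads in Sal–Coc, which is at least 4-fold higher on the same floor. Neither was abundant enough to be tested. The number of genes with any count was 19767 ± 70.6 (SD, n = 3) in Sal–Sal and 19541 ± 314 (SD, n = 3) in Sal–Coc, and these overlapped, with an exact permutation p = 0.4.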

How the data were processed

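RNA was measured by sequencing in 9 pools of dorsal striatum, each present as 4 technical replicates. The authors purified poly(A) RNA for stranded libraries, trimmed or dropped reads of low quality or length, and aligned the others with STAR to the rat genome of Ensembl. They discarded alignments that mapped more than once, and counted reads per gene (HTSeq 0.5.3 and bcl2fastq 2.18.0.12 in the submitters' processing notes). The deposited values were raw counts, with no normalisation, for 32402 Ensembl IDs. Genes with near-identical copies are undercounted. The strand setting of the counting is not given in the sources used here. The authors tested expression with DESeq.

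Counts were summed by ID over the technical replicates of a pool. Genes were kept by filterByExpr (minimum count 10, minimum total count 15), which left 15884 of the 23352 with any count, and scaled by TMM. The test was that of edgeR 4.0.16 under R 4.3.3 (estimateDisp, glmQLFit, glmQLFTest, two-sided) in 1 fit of all 9 pools, with the group as the only term and Benjamini-Hochberg adjustment over all tested genes at a threshold of 0.05. Standard errors were derived from the F statistic. The script was tested on simulated data. The alternatives were DESeq2 1.42.0, the likelihood ratio test, limma 3.58.1 with voom, other scalings and filters, other sets of pools, and the pool number as a block.

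Genes to be named were those with the smallest p-values in each direction among genes that separated the pools at a mean of at least 1 CPM, limited to 2 IDs a direction because the RefSeq table (assembly GRCr8) matched 0 of the 32402 IDs. The gene lists drawn up for striatal neurons, other cell types and pathways, and the length of genes, could not be used for that reason. The comparison, lists and tests were chosen with earlier results of these data known.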

Additional observations from a re-analysis of the deposited data

How the results depend on the processing

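The count of 0 genes past the threshold in edgeR's quasi-likelihood test stayed at 0 with RLE or upper-quartile scaling, without a filter, under a filter that asks each pool for 10 counts, in a fit of the 6 pools alone, with the replicate block and with technical replicate a alone, and ran from 0 to 0 over the 9 fits that left out a pool. DESeq2 called 59 genes, the likelihood ratio test 56, limma-voom with sample quality weights 68, DESeq2 with the replicate block 32 and DESeq2 without Coc–Coc pool 5 224. Of the 59, 46, 44, 24 and 59 were also called by these last 4 in turn. The likelihood ratio test differs from the main test only in how dispersion enters it; for the others the cause was not tested.

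The 1265 genes with an unadjusted p-value under 0.05 became 2988 with limma-voom and 2003 in the fit of the 6 pools alone, and 800 to 1970 when a pool was left out. With the replicate block there were 1129 such genes. The deviations of pools from their group means correlated between pools of 1 number at −0.153, −0.193 and 0.028 for numbers 5, 6 and 7. Between pools of different numbers they correlated at −0.106 (Sal–Sal 5 with Sal–Coc 7) to 0.224 (Sal–Sal 5 with Sal–Coc 6). Whether pools of 1 number share a batch or a pairing was not tested. For the share of lower genes and the medians by decile, all alternatives were chosen after seeing the data. The share of these genes that were lower, 62.9%, stayed above 50 in all 21 alternatives. It was 67.2% with the likelihood ratio test, 54.2% with limma-voom, 66.3% under upper-quartile scaling, 56.9% in the 6-pool fit, 67.4% with the replicate block, 71.1% with DESeq2 and the block, 59.2% with DESeq2 without Coc–Coc pool 5, and 55.1% to 72.5% when a pool was left out.

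The 2919 genes without overlap (18.4%) were 2349 to 3420 under the other scalings, filters and technical replicate a alone. The number of genes kept also changed. The 2349, with technical replicate a alone, were 16.7% of those kept, and the 3420, without a filter, were 14.6%. Omissions of a pool, chosen after seeing the data, gave 4122 (25.7%, Sal–Sal 7) to 5586 (34.8%, Sal–Coc 6), but 2 pools overlap 3 less readily. The median log2 fold change of the most abundant decile stayed positive, at 0.02 to 0.06. That of the least abundant stayed negative, at −0.18 to −0.07 when a pool was left out. It was −0.28 with technical replicate a alone. That value covers only the genes of the decile that passed the filter with fewer reads, which had to be high in some pools. It is therefore not comparable with the others and lends them no support. The log2 fold changes of the 4 genes given by ID kept their direction in all 21 alternatives and passed the threshold in 5, with adjusted p-values from 1.16e-06 to 0.931.

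Tests of the gene lists and by gene length were not run, as the IDs matched no names. Low counts limit the least abundant decile, where a log2 fold change had a median standard error of 0.40.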
